A study of Homo sapiens with 6 samples.

Results

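The genes described here encode the nuclear pore complex and the factors that carry proteins and RNA through it. Members were taken by symbol: the numbered NUP genes, the karyopherins KPNA and KPNB, the exportins XPO, the importins IPO and transportins TNPO, and the numbered RANBP genes, together with RAN, RCC1, RANGAP1, CSE1L and TPR, and without XPO5. This gave 56 genes of the 27968 in the deposited tables, and the rule reads symbols only. Of these, 54 were among the 15072 genes abundant enough to be tested. KPNA7, an importin alpha of the early embryo, had 0 counts in every library. NUP210L, a relative of the membrane nucleoporin NUP210 best known from testis, had expected counts of 1, 5 and 8 in the controls and 2, 2 and 3 with HOTAIR-N siRNA, and was not tested.

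RNA came from H23, an established human lung adenocarcinoma cell line. Cells were transfected with a control siRNA or, in the other group, with HOTAIR-N siRNA, which is directed at a form of HOTAIR (a long non-coding RNA), using RNAiMAX, and RNA was taken 48 hours later. There were 3 independent transfections per siRNA, each sequenced as 1 library of total RNA after ribosomal RNA depletion. All groups share the same line, medium and transfection reagent, the labels give the sequence of neither siRNA, and untransfected cells were not analysed here. Library totals were 32715361 to 36578681 expected counts. HOTAIR itself had 169, 148 and 202 expected counts with control siRNA and 88, 74 and 82 with HOTAIR-N siRNA, which is 48.7% of control after scaling. Differences between replicates exceeded sampling noise. Control replicate 1 stood apart from the other controls in the median of the members, given below. The results below are given without that library where it matters. Of 10 markers for the line, KRT8 (1505 ± 148 TPM, SD, n = 3, with control siRNA) and KRT18 (2592 ± 228 TPM) were abundant, CDH1, EPCAM, KRT19 and NKX2-1 were at 12.01, 6.88, 5.18 and 1.26 TPM, and the surfactant genes SFTPB, SFTPC and SFTPA1 were at or below 0.05 TPM in every library. With HOTAIR-N siRNA KRT18 fell by 0.71 on the log2 scale, and CDH1 rose by 1.07 and NKX2-1 by 1.02; the part of these shifts in the results below was not tested. Of 12 markers of blood, endothelial, fibroblast and liver cells, 10 stayed under 0.5 TPM in every library, CD3E was at 0, and LUM (0.96) and VWF (0.96) rose on the log2 scale. Summed, the 12 gave 4.45 to 4.76 TPM in the control libraries and 4.86 to 6.07 TPM in the HOTAIR-N siRNA libraries.

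The nuclear pore is a ring of nucleoporins set in the nuclear envelope. Scaffold rings hold a central channel filled with flexible nucleoporins rich in phenylalanine-glycine (FG) repeats, with filaments on the cytoplasmic face and a basket on the nuclear face. Importins bind cargo in the cytoplasm and release it in the nucleus when they meet the small GTPase RAN in its GTP form, and exportins bind cargo together with RAN-GTP and release it in the cytoplasm once the GTP is hydrolysed. RCC1 on chromatin loads RAN with GTP, and RANGAP1 outside the nucleus triggers its hydrolysis, so that the gradient of RAN-GTP sets the direction of transport. Dividing cells, tumour lines among them, make these proteins in large amounts.

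These genes were well expressed. In TPM, a length-adjusted value that can be compared between genes, the 54 tested members had a median of 86.6 with control siRNA, 20 lay above 100 TPM and 3 below 10 TPM. KPNA2, an importin alpha, was the highest at 827 ± 41.3 TPM (SD, n = 3), and RAN at 482 ± 20.9 TPM came second. KPNB1, the importin beta that pairs with importin alpha, followed at 407 ± 27.5 TPM, next to the export receptor XPO1 at 377 ± 45.6 TPM, and the control libraries of KPNB1 and XPO1 overlapped. At the low end stood RANBP17 (4.80 ± 0.440 TPM), RANBP6 (6.60 ± 0.906 TPM) and KPNA5 (9.35 ± 1.10 TPM).

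With HOTAIR-N siRNA, 27 of the 54 tested members fell, 9 rose and 18 did not pass the test (edgeR quasi-likelihood test, adjusted p under 0.05 over all genes tested). Among all genes tested, 28.8% fell and 28.7% rose, so the share of members that fell was 50% against 28.8%, and the share that rose was 16.7% against 28.7%. The median log2 fold change (HOTAIR-N siRNA minus control siRNA, in every case below) was -0.14 for the members and 0.01 for all genes tested. Relative to the mean of the controls, the members' median stood at -0.06, 0.03 and 0.02 in the controls and -0.12, -0.13 and -0.14 with HOTAIR-N siRNA, so all 3 treated libraries lay below all 3 controls. The groups did not overlap in 29 members that were lower and 10 that were higher, where the shares over all genes were 31.3% and 31.6%. Most changes were small. Against a fold of 1.5, only XPO7, IPO5 and NUP210 fell and no member rose (edgeR glmTreat), where 5.77% of all genes fell and 5.51% rose by that measure. At an unadjusted p under 0.05 the same fold test also gave 3 lower and 0 higher, and no other tool was run against a fold. Without control replicate 1, 29 members (53.7%) fell and 10 (18.5%) rose, against 29.9% and 30.5% of all genes in that fit. The fewest fell without HOTAIR-N siRNA replicate 3, where 22 members (40.7%) fell and 7 (13%) rose, against 24.9% and 24.3% of all genes.

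The members' transcripts were longer (median 4525 against 2996 nt) and poorer in G and C (43.2% against 49.5%) than those of all genes. After removal of any trend with length and GC content in each library, a setting added once the data had been seen, 28 members fell, 18 rose and the median was -0.08. That is 51.9% and 33.3% of the members, against 34.6% and 35.1% of all 13547 genes in that fit, so the share of members that rose was near that of all genes while the share that fell was not. The members gained were 9 that rose and 2 that fell. XPO4 (0.20, adjusted p = 3.99e-06), KPNA4 (0.16, 1.59e-05), IPO11 (0.14, 0.000956) and NUP133 (0.13, 0.00245) rose the most among them, followed by IPO13 (0.12, 0.0276), IPO4 (0.09, 0.00657), IPO9 (0.09, 0.0191), KPNA1 (0.08, 0.0191) and IPO7 (0.06, 0.0481). RANBP3 (-0.13, 0.00984) and NUP35 (-0.09, 0.04998) fell, and NUP107 (-0.07, 0.056) no longer passed. Among members called in both fits, the rises of KPNB1 (0.22) and NUP88 (0.25) were larger by over 1.5 times than without this step, and the falls of NUP98 (-0.17), NUP153 (-0.18), NUP188 (-0.08), NUP214 (-0.12) and RANBP17 (-0.19) smaller by over 1.5 times. With length alone removed, 25 members fell and 13 rose.

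**Figure D1:**
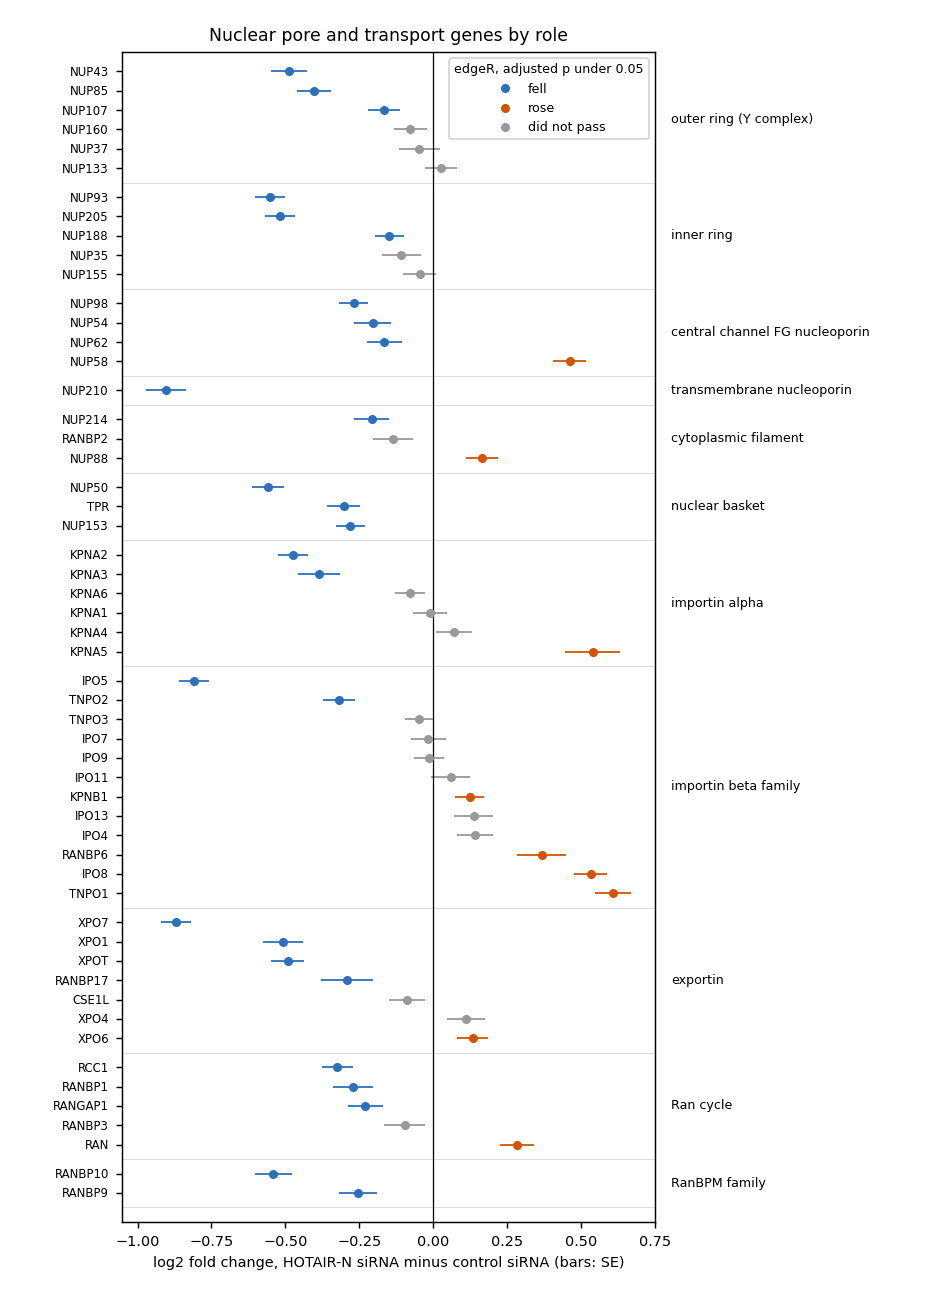
Log2 fold change of each of the 54 tested members (x axis, HOTAIR-N siRNA minus control siRNA, 3 libraries each), grouped by role (y axis), with bars for the SE and colours for the edgeR call. Points run from -0.90 for NUP210 to 0.61 for TNPO1, and all 3 basket genes lie left of 0.

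**Figure D2:**
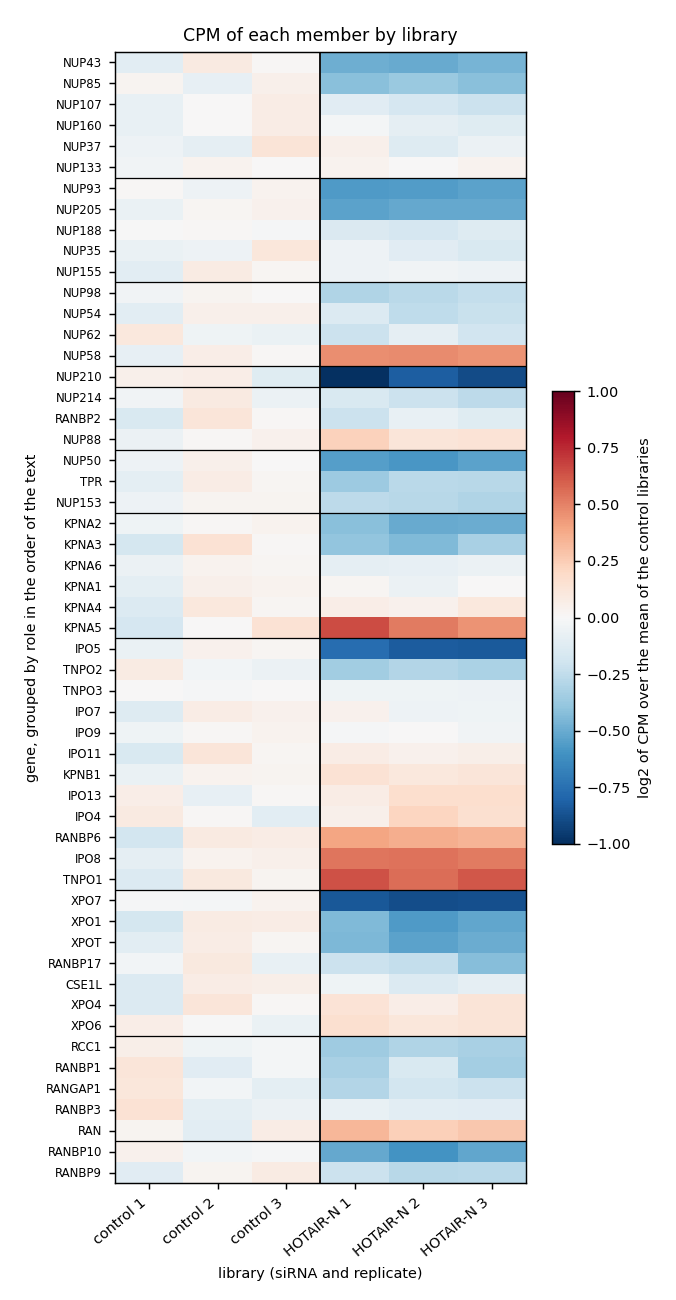
Colours give the log2 of each member's CPM over the mean of the control libraries, with a row per gene and a column per library, and black lines between roles. The 3 HOTAIR-N siRNA columns look alike in most rows, and the darkest blue rows are NUP210, XPO7 and IPO5.

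Nucleoporins and transport receptors had different medians. The nucleoporins counted here are the NUP genes with RANBP2 and TPR, and the 10 under other symbols, given further below, had a median of 0.04. Of 22 tested nucleoporins 14 fell, 2 rose and 6 did not pass, with a median log2 fold change of -0.19. Of 25 tested importins and exportins 8 fell, 6 rose and 11 did not pass, with a median of -0.01. The receptors' shares, 32% lower and 24% higher, were near those of all genes, 28.8% and 28.7%. For the nucleoporins the shares were 63.6% and 9.09%. The same shares over all genes stand beside each role count below. The difference between these 2 groups of genes was not tested, since genes of a group are not replicates. Summed over genes, nucleoporin RNA was 1887, 2099 and 2039 TPM in the control libraries and 1696, 1704 and 1701 TPM in the HOTAIR-N siRNA libraries, or 84.7% of control. The receptors summed to 3256, 3741 and 3562 TPM with control siRNA and to 3003, 2931 and 2977 TPM with HOTAIR-N siRNA, or 84.4% of control. Both sums were lower in every HOTAIR-N siRNA library than in every control library. A lower sum in bulk RNA cannot separate fewer cells with these transcripts from less of them per cell.

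**Figure D3:**
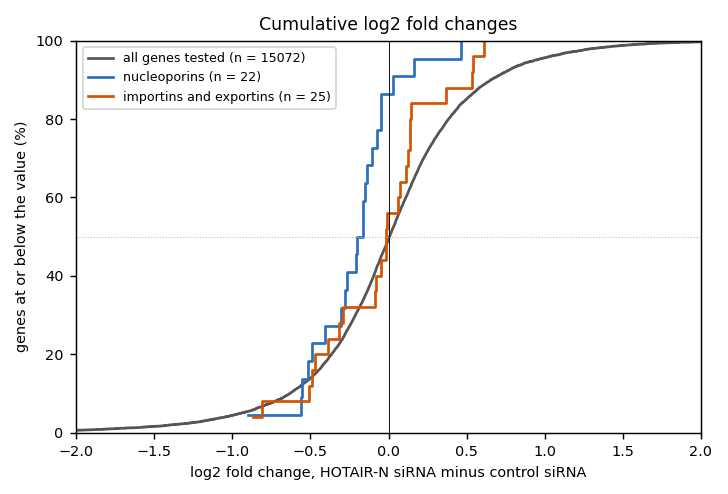
Cumulative share of genes (y axis, %) at or below each log2 fold change (x axis) for all 15072 genes tested, the 22 nucleoporins and the 25 importins and exportins. The curve of the nucleoporins crosses 50% at -0.19, that of the importins and exportins at -0.01 and that of all genes at 0.01.

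Short words in the transcripts can be set beside the fold changes. In earlier results on these same libraries, the 7-base words GACCAAT and ACCAATA in the 3' UTR went with lower fold changes, so what follows describes and does not test. Of 13547 genes searched in GENCODE release 29, 5.17% had GACCAAT in the 3' UTR, with a median log2 fold change of -0.37, against 0.01 for genes without it. In the transcripts searched, none of the 56 members had that word in the 3' UTR. ACCAATA occurred there in IPO7 and KPNA3, against 7.29% of genes. Some of these transcripts were shorter than the deposited lengths, so matches can have been missed. TNPO1 was searched at 3028 nt with a 3' UTR of 278 nt, against a deposited length of 8549 nt. TNPO2 was searched at 3056 nt with a 3' UTR of 19 nt, against 5059 nt. In the coding sequence, GACCAAT occurred in 11 members, of which 10 were tested, or 18.5% of the tested members against 6.68% of genes. Longer transcripts give more places for a match. Of the 10, 7 fell and 3 did not pass, with a median of -0.24. Of the 44 tested members without it, 20 fell and 9 rose, with a median of -0.09. Other words searched in coding sequence were in excess too. The tested members' shares were 25.9% against 5.88% of genes for ACCAATA, 37.04% against 12.01% for TGAATAT and 18.5% against 7.99% for GAATATA. Medians with and without the word were -0.24 and -0.08 for ACCAATA, -0.11 and -0.18 for TGAATAT and 0.0047 and -0.21 for GAATATA. The excess was thus not particular to GACCAAT, and for TGAATAT and GAATATA the median was higher with the word. The windows below show 4 coding matches of GACCAAT and both matches of ACCAATA in a 3' UTR, with the word in capitals. IPO5 and NUP210 were among the 3 members that fell most and CSE1L and IPO9 did not pass, and these 4 were chosen after their values were seen.
IPO5, coding: atatttcttaaGACCAATgctccaatatg
NUP210, coding: actgcaagtgtGACCAATaaagctggaca
CSE1L, coding: ctgaatcagttGACCAATataggaaacaa
IPO9, coding: catgggttcctGACCAATgtcatccttgc
IPO7, 3' UTR: ttttcttgtatACCAATAattaagccact
KPNA3, 3' UTR: taggttttgtaACCAATAaaaaaagctgc
The log2 fold changes of these genes were -0.81, -0.90, -0.09, -0.01, -0.02 and -0.39 in that order.

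Promoter windows of 300 bases (250 before to 50 after the start, RefSeq, GRCh38.p14) were found for 49 of the 56 members. The 48 tested ones had 61 windows. Both strands were searched for short motifs. The cell cycle homology region TTTGAA, bound by the DREAM and MuvB complexes in many cell cycle promoters, occurred in 24.6% of the members' windows and in 10.6% of the 16399 windows of all tested genes. The CCAAT box (CCAAT) was found in 42.6% against 34.3%, the ETS site CCGGAAGT in 13.1% against 6.84%, and the NRF1 palindrome in 6.56% against 1.85%. The GC box GGGCGG occurred in 55.7% against 65.2%, the E-box CACGTG in 14.8% against 9.19%, the E2F site TTTGGCGC in 1.64% against 0.957% and the TATA box TATAAA in 6.56% against 6.38%. Of the 24 fallen members with a window, 7 had TTTGAA: NUP98, KPNA2, NUP93, NUP205, NUP50, NUP153 and RANGAP1. Counted by window, that is 27.3% of the 33 windows of fallen members, near the 24.6% of all the members' windows. Whether the motif goes with a fall was not tested. Windows of NUP205, an inner ring scaffold gene, and NUP50, a basket gene, are shown with every motif match in capitals because they are a fallen pair from different parts of the pore that share TTTGAA. They were chosen after their values were seen. Their sequences lie at chr7:135557667-135557966 and chr22:45164421-45164720, both on the plus strand.
NUP205 promoter: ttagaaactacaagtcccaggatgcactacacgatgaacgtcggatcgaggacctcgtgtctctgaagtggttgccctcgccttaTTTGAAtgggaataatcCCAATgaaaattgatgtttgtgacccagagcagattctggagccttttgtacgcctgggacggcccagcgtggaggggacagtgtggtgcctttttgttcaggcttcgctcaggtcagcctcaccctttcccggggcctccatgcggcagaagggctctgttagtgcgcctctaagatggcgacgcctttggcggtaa
NUP50 promoter: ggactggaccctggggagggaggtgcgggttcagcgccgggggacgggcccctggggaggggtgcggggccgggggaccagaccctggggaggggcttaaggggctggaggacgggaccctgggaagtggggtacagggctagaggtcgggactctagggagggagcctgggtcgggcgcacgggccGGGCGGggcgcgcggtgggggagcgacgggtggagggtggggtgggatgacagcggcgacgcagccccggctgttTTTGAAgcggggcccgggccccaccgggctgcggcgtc
In the NUP205 window the matches are TTTGAA and a CCAAT box, and in the NUP50 window a GC box and TTTGAA. A match is a run of letters and no evidence of binding in these cells.

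The outer ring, or Y complex, is the scaffold on both faces of the pore and also binds kinetochores in mitosis. Of its 6 members 50% (3) fell and 0% rose, against 28.8% and 28.7% of all genes, and 3 did not pass. NUP43, which sits on the short arm of the Y, stood at 121, 139 and 131 CPM (counts scaled to the size of the library) in the control libraries and 92.8, 91.9 and 94.3 CPM in the HOTAIR-N siRNA libraries. NUP85, also of the short arm, stood at 110.3, 102 and 113 CPM in the control libraries and 81.1, 83.7 and 81.0 CPM in the HOTAIR-N siRNA libraries. Their log2 fold changes were -0.49 (SE 0.059, adjusted p = 5.88e-06) and -0.40 (SE 0.057, adjusted p = 2.55e-05), and neither gene's groups overlapped. NUP107, on the stem of the Y, moved less, with 270.4, 286 and 300.1 CPM with control siRNA and 264, 254 and 245 CPM with HOTAIR-N siRNA. Its log2 fold change was -0.17 (SE 0.055, adjusted p = 0.0186), and the call was lost, at the following values, when control replicate 3 (-0.13, adjusted p = 0.0842), HOTAIR-N siRNA replicate 2 (-0.16, 0.0663) or HOTAIR-N siRNA replicate 3 (-0.14, 0.106) was left out. NUP160 (-0.08) and NUP37 (-0.05), of the long arm, and NUP133 (0.03), at the foot of the stem, did not pass. These 6 transcripts of the complex thus spanned log2 fold changes from -0.49 to 0.03. The rule by symbol leaves out other nucleoporins, among them SEH1L (0.22, adjusted p = 0.00936), SEC13 (0.18, 0.0148) and AHCTF1 (-0.18, 0.0101). The exons of NUP43 overlap those of PCMT1 on the other strand, and how strands were counted is not given in the sources used here.

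The inner ring surrounds the channel and anchors it to the membrane. Of its 5 members 60% (3) fell and 0% rose, against 28.8% and 28.7% of all genes, and 2 did not pass. NUP93, which links the ring to the channel nucleoporins, had 172, 165 and 175 CPM in the control libraries and 115, 116 and 118 CPM in the HOTAIR-N siRNA libraries. NUP205, one of its large solenoid scaffolds, had 530.1, 564 and 574 CPM with control siRNA and 384, 391 and 391 CPM with HOTAIR-N siRNA. The falls were similar, at -0.55 (SE 0.052, adjusted p = 4.15e-07) and -0.52 (SE 0.051, adjusted p = 6.39e-07), and each gene's highest treated library was far below its lowest control. NUP188, the close structural relative of NUP205, was at 214, 216 and 213 CPM in the control libraries and 194, 191 and 196 CPM in the HOTAIR-N siRNA libraries, with a log2 fold change of -0.15 (SE 0.049, adjusted p = 0.0175). That call was lost without HOTAIR-N siRNA replicate 2 (adjusted p = 0.0947) or replicate 3 (0.0589). NUP155 (-0.05) and NUP35 (-0.11), which contact the membrane, did not pass. NUP205 at 176 ± 11.03 TPM and NUP155 at 213 ± 19.8 TPM were the most abundant of the ring with control siRNA, and with HOTAIR-N siRNA they stood at 119 ± 2.45 TPM and 199.9 ± 2.33 TPM.

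The FG nucleoporins of the central channel form the barrier through which receptors pass. NUP62, NUP58 and NUP54 assemble into 1 complex, and NUP98 is a mobile FG protein whose precursor also yields the scaffold protein NUP96. These genes moved in opposite directions: 75% (3) fell and 25% (1) rose, against 28.8% and 28.7% of all genes. NUP58 rose, with 118, 131 and 126 CPM with control siRNA and 173, 174 and 171 CPM with HOTAIR-N siRNA and a log2 fold change of 0.46 (SE 0.055, adjusted p = 4.44e-06). NUP54 fell, with 79.3, 88.0 and 88.1 CPM in the control libraries and 77.5, 71.2 and 72.9 CPM in the HOTAIR-N siRNA libraries and a log2 fold change of -0.21 (SE 0.062, adjusted p = 0.0111). At the level of isoforms the fall of NUP54 was not seen in its main form: NM_017426 had a log2 fold change of -0.02 (SE 0.048, adjusted p = 0.814) and went from 81.1% to 92.1% of the gene, while the non-coding form NR_103780 went from 4.67 ± 2.77 CPM (SD, n = 3) to 0 in every HOTAIR-N siRNA library (adjusted p = 0.0132), both looked at after their values were seen. The ratio of NUP58 to NUP54 in gene TPM, a pair chosen after the values were seen, was 0.775, 0.769 and 0.742 in the controls and 1.17, 1.28 and 1.23 with HOTAIR-N siRNA. NUP62 had a log2 fold change of -0.16 (SE 0.061, adjusted p = 0.0304). NUP98, with 343, 358 and 352 CPM with control siRNA and 285, 292 and 297 CPM with HOTAIR-N siRNA, fell by 0.27 on the log2 scale (SE 0.049, adjusted p = 0.000281). The calls of NUP54 without HOTAIR-N siRNA replicate 2 (adjusted p = 0.0652) and of NUP62 without control replicate 1 (0.0736), HOTAIR-N siRNA replicate 1 (0.111) or replicate 3 (0.119) were lost. Exons of NUP62 overlap those of IL4I1 on the same strand and those of ATF5 on the other strand, so its counts are less certain.

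NUP210, an integral membrane glycoprotein of the pore, had the lowest log2 fold change of all members, -0.90 (SE 0.068, adjusted p = 4.43e-08). Its values were 99.2, 99.99 and 88.1 CPM in the control libraries and 47.8, 54.2 and 51.6 CPM in the HOTAIR-N siRNA libraries. The group means were 95.7 ± 6.67 CPM with control siRNA and 51.2 ± 3.23 CPM with HOTAIR-N siRNA (SD, n = 3 each), or 53.5% of control. The highest treated library was well below the lowest control.

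On the cytoplasmic face, 1 of 3 members (33.3%) fell, 1 (33.3%) rose and 1 did not pass, against 28.8% and 28.7% of all genes. NUP214, which helps export complexes disassemble, had 109, 118 and 107 CPM with control siRNA and 100.1, 95.9 and 93.0 CPM with HOTAIR-N siRNA. Its log2 fold change was -0.21 (SE 0.059, adjusted p = 0.00752), and the call was lost without HOTAIR-N siRNA replicate 3 (adjusted p = 0.0525). NUP88, the partner that holds NUP214 at the pore, rose, with 175, 185 and 189 CPM in the control libraries and 215, 199 and 202 CPM in the HOTAIR-N siRNA libraries and a log2 fold change of 0.17 (SE 0.055, adjusted p = 0.0174). That rise did not pass without HOTAIR-N siRNA replicate 1 (adjusted p = 0.0842), and exons of NUP88 overlap those of RABEP1 and RPAIN on the other strand. RANBP2, the giant filament protein that binds RAN and SUMO-modified RANGAP1, had 440.0, 532 and 493 CPM with control siRNA and 421, 464 and 449 CPM with HOTAIR-N siRNA. Its groups overlapped and its log2 fold change of -0.14 (SE 0.066, adjusted p = 0.0932) did not pass, although without control replicate 1 it was -0.20 (adjusted p = 0.0029). RANBP2 shares near-identical sequence with the RGPD genes, so its reads may be divided among them.

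All 3 basket genes (100%) fell, where 28.8% of all genes did. NUP50, a mobile basket protein that helps release cargo from importin alpha, had 107, 115 and 111 CPM in the control libraries and 75.7, 74.1 and 76.6 CPM in the HOTAIR-N siRNA libraries. NUP153, the FG protein that anchors the basket, had 380.1, 402 and 401 CPM with control siRNA and 329.9, 325 and 319.9 CPM with HOTAIR-N siRNA. TPR, the coiled-coil filament of the basket, had 392.1, 442 and 427 CPM in the control libraries and 328, 349 and 346 CPM in the HOTAIR-N siRNA libraries. None of these genes had overlapping groups. Exons of TPR overlap those of PRG4 on the other strand, and exons of NUP153 those of the antisense gene AL138724.1. The log2 fold change was -0.56 (SE 0.055, adjusted p = 6.80e-07) for NUP50, -0.28 (SE 0.050, adjusted p = 0.000218) for NUP153 and -0.30 (SE 0.056, adjusted p = 0.000324) for TPR. Basket RNA summed to 241, 277 and 262 TPM in the control libraries and 198, 202 and 202 TPM in the HOTAIR-N siRNA libraries, or 77.2% of control. Of the parts of the pore with more than 1 tested gene, this was the largest fall of a sum.

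Importin alpha proteins are adaptors that hold a classical nuclear localisation signal and bind importin beta. Of 6 tested members 33.3% (2) fell and 16.7% (1) rose, against 28.8% and 28.7% of all genes, and 3 did not pass. KPNA2, the most abundant member of all and a gene linked to proliferation, fell: it had 808, 839 and 853 CPM with control siRNA and 622, 589 and 590.1 CPM with HOTAIR-N siRNA. Its group means were 833 ± 23.5 CPM with control siRNA and 600.4 ± 19.1 CPM with HOTAIR-N siRNA (SD, n = 3 each), and its log2 fold change was -0.47 (SE 0.050, adjusted p = 1.39e-06). KPNA3, of another subfamily, fell too, with 121, 150.4 and 137 CPM in the control libraries and 104, 100.2 and 109 CPM in the HOTAIR-N siRNA libraries and a log2 fold change of -0.39 (SE 0.072, adjusted p = 0.00033). KPNA5, at a low level, rose, with 8.59, 9.63 and 10.7 CPM with control siRNA and 15.1, 13.8 and 13.1 CPM with HOTAIR-N siRNA and a log2 fold change of 0.54 (SE 0.093, adjusted p = 0.000155). KPNA6 (-0.08), KPNA4 (0.07) and KPNA1 (-0.01) did not pass, and KPNA6 passed without control replicate 1 (-0.10, adjusted p = 0.0469). KPNA2 made up most of the sum of the family, which was 1028, 1163 and 1118 TPM in the control libraries and 851, 822 and 838 TPM in the HOTAIR-N siRNA libraries, or 75.9% of control. The share of KPNA2 in that sum was 75.9%, 74.0% and 75.1% in the controls and 69.7%, 69.0% and 68.2% with HOTAIR-N siRNA. The share of KPNA4 went from 8.99 ± 0.47% to 12.1 ± 0.37% (SD, n = 3 each), while its own level was 99.3 TPM with control siRNA and 101 TPM with HOTAIR-N siRNA. Mean shares of KPNA1 (4.60% to 5.85%), KPNA6 (5.05% to 6.12%) and KPNA5 (0.847% to 1.58%) were higher too. That of KPNA3 (5.53% to 5.42%) overlapped between the groups.

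The importin beta family holds receptors that bind cargo directly or through an adaptor. Of its 12 members 16.7% (2) fell and 33.3% (4) rose, against 28.8% and 28.7% of all genes, and 6 did not pass. The median log2 fold change was 0.09. IPO5, whose cargo includes ribosomal proteins and histones, had 662, 713 and 699 CPM in the control libraries and 409, 388 and 386 CPM in the HOTAIR-N siRNA libraries. Its group means were 691 ± 26.5 CPM with control siRNA and 394 ± 12.4 CPM with HOTAIR-N siRNA (SD, n = 3 each), or 57.1% of control, and its log2 fold change was -0.81 (SE 0.052, adjusted p = 7.71e-09). TNPO1, or transportin, which imports RNA-binding proteins such as hnRNP A1, had the highest log2 fold change of all members, 0.61 (SE 0.061, adjusted p = 7.71e-07). It stood at 255, 299.6 and 286 CPM with control siRNA and 437, 414 and 432 CPM with HOTAIR-N siRNA. IPO8, the close relative of IPO7, rose as well, with 71.9, 78.3 and 78.9 CPM in the control libraries and 110.4, 111 and 109.6 CPM in the HOTAIR-N siRNA libraries and a log2 fold change of 0.53 (SE 0.057, adjusted p = 1.57e-06). Close relatives within the family differed in direction. TNPO2, the nearest relative of TNPO1, fell by 0.32 on the log2 scale (SE 0.055, adjusted p = 0.000169), and in TPM the ratio of TNPO1 to TNPO2 was 0.841, 1.07 and 1.04 in the controls and 1.94, 1.77 and 1.88 with HOTAIR-N siRNA. RANBP6, the nearest relative of IPO5, rose by 0.37 (SE 0.083, adjusted p = 0.00153) from a low level, while IPO7 (-0.02) did not pass beside IPO8. The choice of these pairs followed their values, and the difference within a pair was not tested.

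KPNB1, the importin beta of the classical pathway, had 789, 849 and 844 CPM with control siRNA and 915, 891 and 898 CPM with HOTAIR-N siRNA. Its groups did not overlap, yet its log2 fold change of 0.12 (SE 0.050, adjusted p = 0.045) is close to the threshold, and the call was lost without control replicate 1 (adjusted p = 0.0599), control replicate 3 (0.0579) or HOTAIR-N siRNA replicates 1, 2 and 3 in turn (0.123, 0.0997 and 0.118). KPNA2 and KPNB1 thus stood at a ratio of 2.03 ± 0.037 in TPM with control siRNA and of 1.34 ± 0.021 with HOTAIR-N siRNA (SD, n = 3 each), a pair chosen after the values were seen. IPO4 (0.14), IPO13 (0.14), TNPO3 (-0.05), IPO11 (0.06), IPO7 and IPO9 (-0.01) did not pass. IPO4 passed without control replicate 1 (0.19, adjusted p = 0.00523) and also without HOTAIR-N siRNA replicate 1 (0.18, adjusted p = 0.0366), and IPO13 without control replicate 1 (0.18, adjusted p = 0.0186). The summed RNA of the family was 1259, 1418 and 1340.2 TPM in the control libraries and 1283, 1282 and 1287 TPM in the HOTAIR-N siRNA libraries, and these ranges overlapped.

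Exportins carry proteins and RNA out of the nucleus with RAN-GTP. Of 7 members 57.1% (4) fell and 14.3% (1) rose, against 28.8% and 28.7% of all genes, and 2 did not pass. Their median log2 fold change was -0.29. XPO7, a receptor with a broad set of protein cargo, had the smallest p of all members, with 218, 217 and 225 CPM in the control libraries and 122, 119 and 119 CPM in the HOTAIR-N siRNA libraries. Its group means were 220.0 ± 4.20 CPM with control siRNA and 120.3 ± 1.65 CPM with HOTAIR-N siRNA (SD, n = 3 each), or 54.7% of control, and its log2 fold change was -0.87 (SE 0.051, adjusted p = 2.93e-09). XPO1, also called CRM1, recognises leucine-rich export signals and is the main exporter of proteins. It stood at 808, 963 and 961 CPM with control siRNA and 670.2, 616 and 635 CPM with HOTAIR-N siRNA, with a log2 fold change of -0.51 (SE 0.066, adjusted p = 1.20e-05). XPOT, which exports mature tRNA, had 398, 449 and 433 CPM in the control libraries and 313, 294 and 303 CPM in the HOTAIR-N siRNA libraries and a log2 fold change of -0.49 (SE 0.056, adjusted p = 3.23e-06). In all 3 genes every treated library was below every control. RANBP17, a scarce relative of XPO7, had a log2 fold change of -0.29 (SE 0.089, adjusted p = 0.0112), with adjusted p of 0.0557 without control replicate 2 and 0.0847 without HOTAIR-N siRNA replicate 3. XPO6, which exports actin with profilin, had 0.13 (SE 0.053, adjusted p = 0.0399), and passed among the libraries left out in turn only without control replicate 1, with adjusted p of 0.0713 and 0.155 without control replicates 2 and 3 and 0.13, 0.084 and 0.115 without HOTAIR-N siRNA replicates 1, 2 and 3. CSE1L, which returns importin alpha to the cytoplasm, had -0.09 (SE 0.060, adjusted p = 0.226) and passed without control replicate 1 (-0.15, adjusted p = 0.00926). XPO4 had 0.11 (SE 0.064, adjusted p = 0.152) and passed without control replicate 2 (0.17, adjusted p = 0.0341). Exportin RNA summed to 968, 1160.1 and 1103 TPM in the control libraries and 869, 827 and 852 TPM in the HOTAIR-N siRNA libraries, or 78.8% of control.

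**Figure D4:**
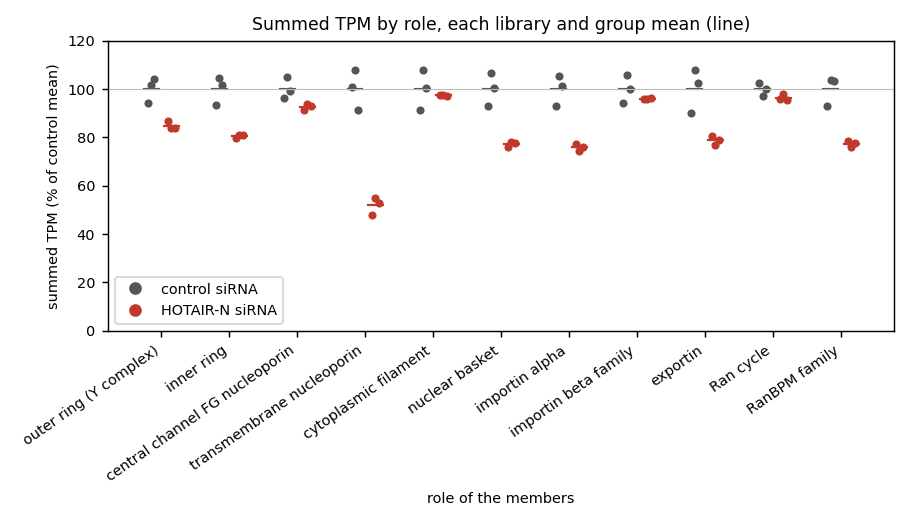
Summed TPM of the members of each role (x axis) in each library as a percent of the control mean (y axis, from 0), with lines for the group means. The importin alpha sum with HOTAIR-N siRNA is at 75.9% and the exportin sum at 78.8%, while the importin beta family at 95.9% and the Ran cycle at 96.4% overlap their controls.

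The proteins that drive RAN between its GTP and GDP forms were split. Of 5 members 60% (3) fell and 20% (1) rose, against 28.8% and 28.7% of all genes, and 1 did not pass. RAN, the GTPase itself, rose, with 603, 551 and 625 CPM with control siRNA and 749, 701 and 716 CPM with HOTAIR-N siRNA and a log2 fold change of 0.28 (SE 0.056, adjusted p = 0.00053). RCC1, the exchange factor that makes RAN-GTP on chromatin, fell, with 198, 184 and 186 CPM in the control libraries and 148, 154 and 152 CPM in the HOTAIR-N siRNA libraries and a log2 fold change of -0.32 (SE 0.053, adjusted p = 9.36e-05). RANBP1, a cofactor of hydrolysis, had 194, 165 and 177 CPM with control siRNA and 143, 161 and 141 CPM with HOTAIR-N siRNA and a log2 fold change of -0.27 (SE 0.068, adjusted p = 0.00341). RANGAP1, the activator of that hydrolysis, fell by 0.23 on the log2 scale (SE 0.061, adjusted p = 0.00479). RANBP3, a cofactor of XPO1, had -0.10 (SE 0.068, adjusted p = 0.242) and did not pass. In TPM the ratio of RAN to RCC1 was 3.08, 3.02 and 3.39 in the controls and 5.12, 4.60 and 4.77 with HOTAIR-N siRNA, a pair chosen after the values were seen. With HOTAIR-N siRNA RAN (569.5 ± 14.8 TPM) stood beside KPNA2 (577 ± 13.5 TPM), where KPNA2 had been far above it with control siRNA. RCC1 shares exonic sequence with the non-coding gene SNHG3 on the same strand, and RANBP1 overlaps TRMT2A on the other strand, so both values are less certain.

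RANBP9 and its relative RANBP10 carry the RAN-binding protein name but are scaffolds of the CTLH ubiquitin ligase, and are not known as transport receptors. Both fell. RANBP10 had 48.0, 45.6 and 46.1 CPM in the control libraries and 32.6, 30.8 and 32.5 CPM in the HOTAIR-N siRNA libraries and a log2 fold change of -0.54 (SE 0.062, adjusted p = 3.14e-06). RANBP9 had 64.2, 70.8 and 73.7 CPM with control siRNA and 59.9, 57.4 and 57.8 CPM with HOTAIR-N siRNA and a log2 fold change of -0.25 (SE 0.064, adjusted p = 0.00324). In neither gene did the groups overlap. Exons of RANBP9 overlap those of NOL7 on the other strand.

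Isoforms, listed in the tables by RefSeq name, were tested in the same way. Of 123 isoforms of members, 108 were tested, 27 fell and 10 rose, where 10.1% of all tested isoforms fell and 9.39% rose. The median log2 fold change was -0.13 for the members' isoforms and 0.0037 for all isoforms. The lowest p belonged to the main isoforms of XPO7 (NM_015024, log2 fold change -0.86) and IPO5 (NM_002271, -0.80). Of the 36 members that passed as genes, 3 had a main isoform that moved by under 0.5 of the gene's log2 fold change, namely NUP54, NUP62 (NM_153719, -0.04, adjusted p = 0.868) and XPO6 (NM_015171, 0.06, adjusted p = 0.542). In 4 genes an isoform that passed went against its gene or belonged to a gene that did not pass. NUP98 makes a long precursor of 1800 codons (NM_016320) and a short form of 937 codons (NM_005387) that lacks the part released as NUP96. The long form made up 85.5%, 84.1% and 84.8% of the gene in the controls and 79.0%, 79.1% and 81.9% with HOTAIR-N siRNA. The short form rose from 9.14%, 10.96% and 10.4% to 17.9%, 17.4% and 15.7%, with a log2 fold change of 0.53 (SE 0.10, adjusted p = 0.0203) while the gene fell. A further form of 1726 codons (NM_139132) had shares of 5.31%, 4.93% and 4.84% with control siRNA and 3.12%, 3.45% and 2.38% with HOTAIR-N siRNA. The rise of the short form was lost without control replicate 3 (adjusted p = 0.0675) and without HOTAIR-N siRNA replicates 1, 2 or 3 (0.0753, 0.0794 and 0.0547).

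The isoform NM_001278651 of RANGAP1 rose, with a log2 fold change of 0.54 (SE 0.083, adjusted p = 0.00927), while the gene fell, and it passed with each library left out in turn. Its share of the gene was 8.42%, 9.04% and 9.38% in the controls and 14.2%, 16.0% and 15.2% with HOTAIR-N siRNA. It encodes 587 codons, as many as the main isoform NM_002883. CSE1L and RANBP3 did not pass as genes. NM_001256135 of CSE1L, a form of 915 codons against 971 for the main one, fell by 1.12 on the log2 scale (SE 0.25, adjusted p = 0.0306), with a share of 3.00% going to 1.47%. NM_003624 of RANBP3 rose by 0.65 (SE 0.17, adjusted p = 0.0447), with a share of 7.54% going to 12.6%. The CSE1L form passed among the libraries left out in turn only without control replicate 1 (adjusted p = 0.0368), with 0.0502 to 0.0998 without any other. The RANBP3 form did not pass when any library was left out (0.0705 to 0.129). For XPO6, chosen after the values were seen, the form NM_001270940 of 1111 codons, against 1125 for the main one, went from 4.71%, 3.65% and 3.73% of the gene to 6.78%, 11.1% and 11.2%, with a log2 fold change of 1.40 (SE 0.24, adjusted p = 0.0131). Whether this XPO6 form passed with a library left out, or with a replicate block, was not looked at.

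**Figure D5:**
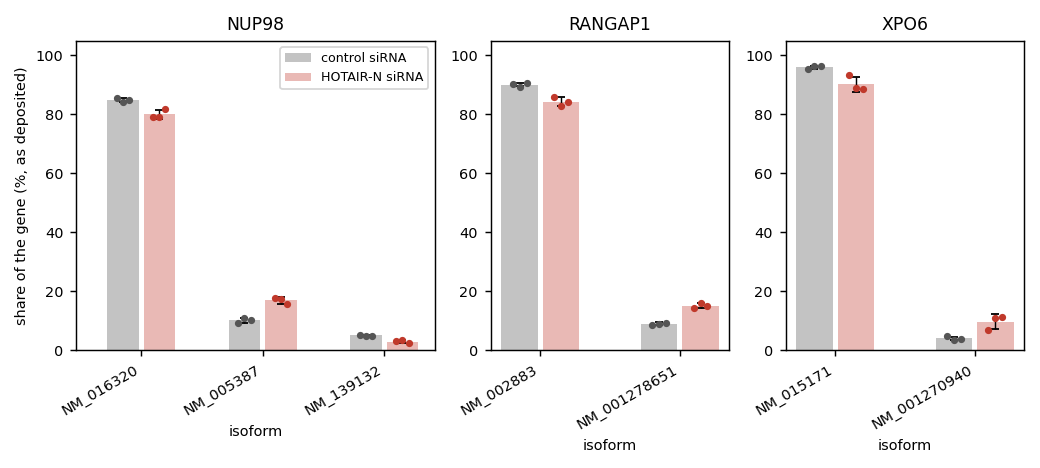
Share of the gene (y axis, %, as deposited) that each named isoform of NUP98, RANGAP1 and XPO6 makes up (x axis) in each library, with bars for the group mean and error bars for the SD (n = 3). The short NUP98 form NM_005387 is higher in all HOTAIR-N siRNA libraries than in all control libraries, and so are NM_001278651 of RANGAP1 and NM_001270940 of XPO6.

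Genes of neighbouring steps that do not carry the names above were read from lists of known members. Of 10 nucleoporins under other symbols 40% (4) fell and 30% (3) rose, against 28.8% and 28.7% of all genes. Their median log2 fold change was 0.04. GLE1, which activates the RNA helicase at the export site, fell by 0.48, the membrane nucleoporin POM121 fell by 0.30, and RAE1, the export factor bound to NUP98, rose by 0.31. Of 23 mRNA export genes 39.1% (9) fell and 13.0% (3) rose, with a median of -0.14, against 28.8% and 28.7% of all genes. POLDIP3 fell by 0.84, SARNP by 0.60 and ALYREF by 0.50, and all of them work with the TREX complex, which couples export to transcription and splicing. The THOC genes of that complex did not share this direction. THOC1 (0.39) and THOC7 (0.31) rose, THOC5 (-0.16) fell, and THOC2, THOC3 and THOC6 did not pass. NXT1 (0.27) rose as well. Among 5 tested factors of RAN import and snRNA transport, NUTF2, which brings RAN back into the nucleus, fell by 0.25, RCC2 rose by 0.12 (adjusted p = 0.04997) and RANGRF had 0.17 and did not pass. The SUMO cycle acts at the filaments, where RANBP2 holds SUMO-modified RANGAP1. All 8 of its tested genes fell, where 28.8% of all genes did, with a median of -0.68. Those with the smallest p were SUMO3 (-0.84), SUMO2 (-0.75) and SENP1 (-0.83). Of 19 genes of the lamina and inner nuclear membrane 63.2% (12) fell and 21.1% (4) rose, against 28.8% and 28.7% of all genes. Their median was -0.25. The LINC component SYNE2 fell by 1.02, the chromatin bridge BANF1 fell by 0.85 and SYNE1 rose by 0.98.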

How the data were processed

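RNA of H23 cells was sequenced in 6 libraries, 3 with control siRNA and 3 with HOTAIR-N siRNA. Per the submitters' processing notes, the tools were RSEM 1.3.0 and STAR 2.6.0c, on build hg19. The strand setting and the annotation release were not given in the sources used here. The deposited tables give, per the file headers, expected counts of each gene and isoform, which are RSEM's estimates and were not whole in 10.9% of gene values and 42.2% of isoform values. They also hold TPM, which the authors adjusted for length and scaled per library, isoform shares as the percent of a gene (deposited as such), and lengths.

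Expected counts were rounded and tested in edgeR 4.0.16 (R 4.3.3) with filterByExpr, TMM scaling, the robust quasi-likelihood test and Benjamini-Hochberg adjustment over all genes, or all isoforms, at 0.05. CPM uses the scaled library sizes. TPM sums and ratios have no test. Alternatives were other scalings and filters, leaving out each library, a replicate block, a test against a fold of 1.5, a length trend removed, DESeq2 1.42.0, limma-voom and limma 3.58.1 on log2 TPM. The steps were also run on simulated counts in which far fewer genes changed than in these data, so scaling and error rates at this extent were not tested. The separate transfections are per the series' design text. At 32715361 to 36578681 expected counts a library, the members together hold 417969 to 518282 counts a library.

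Members, role groups, lists and words were chosen with earlier results of these data known. Named by rule were, in each role, the 3 members with the lowest p and the largest log2 fold change, the 3 highest and 3 lowest over all roles, the 3 most abundant, 3 genes per other list, up to 6 isoforms that went against their gene and the 2 isoforms with the lowest p. Other named members were chosen after their values were seen. Words and coding lengths came from GENCODE 29 transcripts, and promoters from RefSeq.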

Additional observations from a re-analysis of the deposited data

How the results depend on the processing

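Of the 36 members that passed the test, 27 kept their call under all 18 alternatives other than the test against a fold of 1.5, 9 lost it in at least 1, and none changed direction. The 9 were KPNB1, NUP107, NUP188, NUP214, NUP54, NUP62, NUP88, RANBP17 and XPO6. Of the 18 members that did not pass, 11 passed under at least 1 alternative with the sign of the main fit. IPO7, IPO9 and KPNA1 passed with the other sign, at the values given below. Against a fold of 1.5, 1700 genes differed in place of 8672, 3 members fell and 0 rose. With the length trend removed the members' median was -0.1023, with 25 lower and 13 higher. With length and GC content removed, chosen after the data were seen, it was -0.0832, 18 members rose, 28 fell, and IPO7 (0.06239, adjusted p = 0.04807), IPO9 (0.08761, 0.01909) and KPNA1 (0.07962, 0.0191) changed sign; this alternative tested 13547 genes, and the cause was not tested. On log2(TPM + 1) and log2(TPM + 0.1) with limma the median was -0.1799 and -0.1821. With 1 library left out, 7503 to 9234 genes differed, 22 to 29 members fell, 7 to 10 rose, the median ran from -0.1494 to -0.1296, and 22 to 36 member isoforms differed in place of 37.

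Same-numbered libraries deviated from their group means with correlations of -0.296, -0.029 and -0.102, and differently numbered ones with -0.305 to 0.371. With 3 libraries a group these correlations depend on each other, so they cannot show whether libraries were handled together. With the replicate block 7984 genes differed, 25 members fell, 6 rose with a median of -0.1407, and 14 member isoforms differed. Under the block KPNB1, NUP188, NUP62, NUP88 and XPO6 did not pass. Neither did the isoforms named for RANGAP1 (adjusted p = 0.0661), NUP98 (0.0851) and RANBP3 (0.109). Depth limits RANBP17, KPNA5 and RANBP6, at about 9 to 19 CPM, more than the abundant members.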
